A study of Saccharomyces cerevisiae with 7 samples.

Results

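The comparison described here set cultures fed galacturonic acid against cultures fed a low amount of galactose, in the Saccharomyces cerevisiae strain CEN.PK113-7D, a haploid of mating type a used in physiology work. It used 4 of the 7 arrays of the study, chosen by the treatment given for each sample: 2 arrays from cultures with 10 g/l galacturonic acid and 2 from cultures with 0.23 g/l galactose. The other 3 arrays came from control cultures without either addition, which entered the same fit and are given beside each gene. All cultures were aerobic, glucose-limited chemostats on synthetic medium with 7.5 g/l glucose, at pH 3.5 and 30 °C, with medium renewed at 0.1 volumes per h. A chemostat holds the growth rate of its cells at the rate at which fresh medium enters. The doses of the additions differ, so the values compare these cultures and not equal amounts of both compounds. One label field of the galactose arrays names galacturonic acid at 0.23 g/l, whereas their title, description and treatment name galactose, which was used. Of 5656 genes measured by a probe set of their own, 5220 lay above an intensity of 12 on at least 2 of the 7 arrays and were tested, and 436 did not.

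Galacturonic acid is the main sugar acid of pectin, the gel-forming polysaccharide of plant cell walls, and laboratory strains of S. cerevisiae do not grow on it as a carbon source. Galactose enters the cell through the permease Gal2 and is converted by the galactokinase Gal1, the uridylyltransferase Gal7 and the epimerase Gal10. The genes for these proteins are switched on when galactose-bound Gal3 releases the activator Gal4 from its inhibitor Gal80, and glucose represses them. The galactose cultures allowed the transcripts of the galacturonic acid cultures, which were fed no galactose, to be read against cultures that were fed it.

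The galactose arrays differed from the other 5 arrays in the control probe sets that read the 3' and the 5' end of the same transcript. For ACT1 (actin) the 3'/5' ratio of intensities was 1.34 and 1.33 on the galacturonic acid arrays, 19.8 and 306 on galactose arrays 1 and 2, and 1.07 to 1.23 on the control arrays. For SPT15 (TATA-binding protein) it was 2.04 and 2.28 with galacturonic acid, 2.76 and 124 with galactose, and 1.66 to 2.75 in control. The 5' probe sets behind 306 and 124 read only 10.5 and 4.1, under the floor used below, which leaves the sizes of both ratios uncertain. Signal from the 5' end was thus low on galactose array 2 for both transcripts and on galactose array 1 for ACT1. Replicate arrays had a median SD of log2 intensity of 0.17 with galacturonic acid, 0.52 with galactose and 0.30 in control. Short genes, those coding for fewer than 500 bases, had a median log2 difference of -0.15 from galactose array 1 and -0.56 from galactose array 2, and genes of 2000 bases or more -0.41 and -0.14. The galactose arrays read 461 genes (8.83%) more than 2 log2 units apart, and the galacturonic acid arrays 4 genes. The part of this difference between arrays in the results below was not tested. The fits that leave out a galactose array still hold the other, so they cannot separate this difference from the treatment. The total counts and those of the gene lists are also given without galactose array 1 and without galactose array 2.

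**Figure D1:**
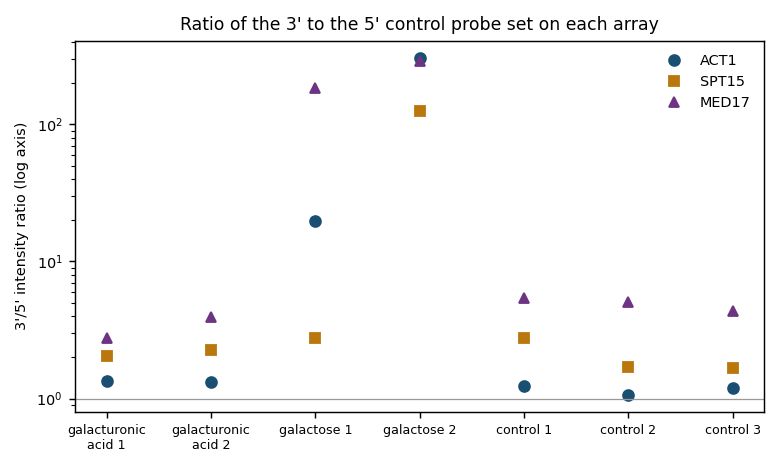
Ratio of the intensity at the 3' control probe set to that at the 5' control probe set (vertical log axis, no unit) on each of the 7 arrays, for ACT1, SPT15 and MED17, a Mediator subunit. One point is one array. ACT1 stood at 1.34 and 1.33 on the galacturonic acid arrays, at 19.8 and 306 on the galactose arrays and at 1.07 to 1.23 on the control arrays.

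The permease and enzyme genes of galactose use were expressed in both sets of cultures, and GAL2, GAL10 and GAL7 were lower with galacturonic acid, whereas several nutrient transporters, mating genes and the dihydroxyacetone kinase gene DAK2 were higher with galacturonic acid. The acetate and lactate permease genes ADY2 and JEN1, the mannoprotein gene HPF1 and the copper transporter gene CTR3 were among those that were lower with it. Values were raised to a floor of 12, taken as log2 and fitted with limma over all 7 arrays, and a gene was called when its Benjamini-Hochberg adjusted p over the 5220 genes lay under 0.05. The fit called 686 genes (13.1%), of which 273 (5.23%) were higher and 413 (7.91%) lower with galacturonic acid. Counts of calls in the gene lists below are to be read against these shares. The 2 galacturonic acid values lay on one side of both galactose values in all 686. Over all genes tested the groups did not overlap in 23% with the galacturonic acid values higher and in 41.4% with them lower, so this separation by itself marks no gene. The median log2 difference over all genes was -0.24. In the same fit galacturonic acid differed from control in 2.32% of genes and galactose from control in 9.06%.

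The number of calls depended on the galactose arrays and on how the spread was estimated. It was 2327 without galactose array 1, 279 without galactose array 2, and 135 with weights that let noisier arrays count less. The calls that kept their direction in the fit of all arrays, with array weights, without galactose array 1 and without galactose array 2 numbered 126 (2.41%), with 105 higher (2.01%) and 21 lower (0.402%). These are named below as calls kept in all 4 fits, a setting chosen after seeing the data. Each of the 4 fits holds at least 1 galactose array, so a kept call does not test the part of the low 5' signal. In the fits that leave out a galactose array, the single remaining galactose array takes its spread from the other groups. Calls in those fits therefore do not measure the spread between galactose arrays. The array weights were equal within each treated group, at 0.263 for both galactose arrays and 2.31 for both galacturonic acid arrays. That fit thus did not count galactose array 2 less than galactose array 1. In a fit of the 4 arrays alone no gene passed, with 1250 at an unadjusted p under 0.05, against 1901 in the fit of all arrays. Without galacturonic acid array 1 the genes HAC1, AQY2, DAK2 and SAM3 passed, and without galacturonic acid array 2 the same 4 and PHO84, and in these fits the single remaining array takes its spread from the other groups. Of the 686 calls 39.8% were higher, and this share was 58.4% after quantile normalisation, 61.1% after scaling to the 75th percentile and 64.8% after removing the trend of each array on coding length. The median difference over all genes was -0.20, -0.13 and -0.05 under those settings.

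**Figure D2:**
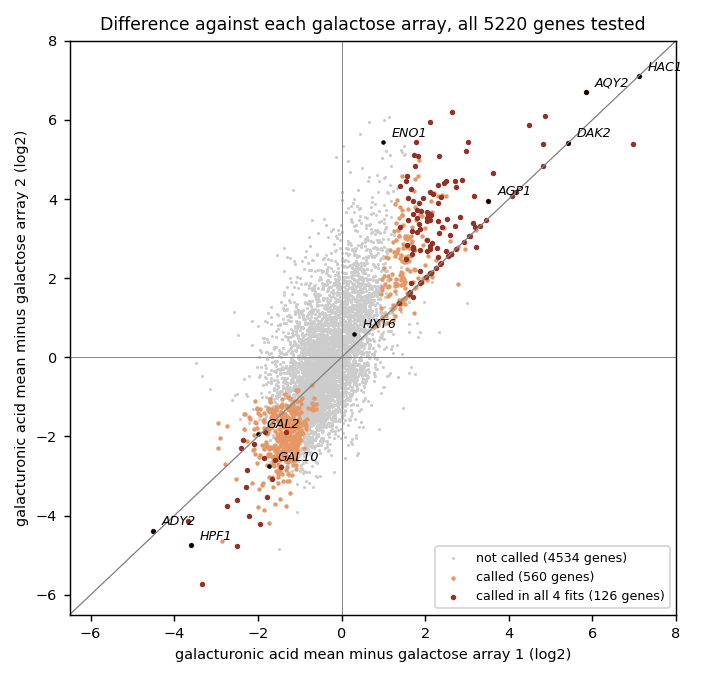
Log2 difference of the galacturonic acid mean from galactose array 1 (horizontal axis) and from galactose array 2 (vertical axis) for the 5220 genes, 1 point per gene, with the line of equal differences. Dark points are the 126 calls kept in all 4 fits, orange points the other calls and grey points genes that were not called. DAK2 and HAC1 lie on the line because both galactose arrays were raised to the floor for them, ADY2 lies near it, and ENO1, marked as an example after its values were seen, lies far above it.

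The permease and enzyme genes of galactose use were expressed with galacturonic acid and with galactose, and lay below the floor on all 3 control arrays. GAL2 (YLR081W), the permease, read 263.9 and 299.5 with galacturonic acid, against 1126.6 and 1069.6 with galactose and 7.0 to 8.6 in control. Both galacturonic acid values lay far below both galactose values, a log2 difference of -1.97 ± 0.32 (SE, adjusted p = 0.0149). GAL10 (YBR019C), the epimerase, read 104.9 and 136.9 with galacturonic acid, against 399.6 and 810.4 with galactose and 2.6 to 5.0 in control, and its difference was -2.25 ± 0.42 (adjusted p = 0.0198). GAL7 (YBR018C), the uridylyltransferase, read 124.1 and 98.0 with galacturonic acid, against 340.3 and 286.8 with galactose and 2.7 to 4.8 in control, with a difference of -1.50 ± 0.33 (adjusted p = 0.0293). These 3 genes were therefore lower with galacturonic acid than with galactose and above the control level in both. GAL1 (YBR020W), the galactokinase, showed the same order without passing: it read 73.8 and 104.7 with galacturonic acid, against 154.9 and 178.4 with galactose and 0.5 to 3.5 in control, a difference of -0.92 ± 0.33 (adjusted p = 0.0894).

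The calls of GAL2, GAL10 and GAL7 were kept without galactose array 1 (adjusted p = 0.0048, 0.00216 and 0.0135) and without galactose array 2 (0.0262, 0.0362 and 0.04). They were lost with array weights, where adjusted p was 0.0574, 0.0574 and 0.121. GAL1 passed without galactose array 1 (adjusted p = 0.0411). The regulators did not pass. GAL3 (YDR009W), which senses galactose, read 73.3 and 63.0 with galacturonic acid, against 46.0 and 46.8 with galactose and 21.8 to 44.8 in control, a difference of 0.55 ± 0.41. GAL80 (YML051W), the inhibitor of Gal4, read 75.5 and 109.6 with galacturonic acid, against 91.5 and 206.3 with galactose and 38.5 to 64.6 in control, a difference of -0.59 ± 0.49. Its galacturonic acid values overlapped those of the galactose arrays. Among the other Gal4 targets PCL10, a cyclin, was at -1.47 ± 0.43 (adjusted p = 0.0572), GCY1, a glycerol dehydrogenase, at -0.46, the uracil permease gene FUR4 at 0.66 and MTH1, a regulator of glucose transporter genes, at 0.70. In all, 3 of the 10 Gal4 targets fell and none rose, with a median log2 difference of -0.76 against -0.24 over all genes. This list gave 1 higher and 5 lower without galactose array 1, and 0 higher and 3 lower without galactose array 2. Of 7 further galactose pathway genes none passed, and GAL11, a Mediator subunit with the smallest p among them, was at 1.08 ± 0.39 (adjusted p = 0.0896).

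None of the 10 tested hexose transporter and glucose sensor genes passed the threshold. HXT3 (YDR345C), a low-affinity transporter, read 617.9 and 349.5 with galacturonic acid, against 226.2 and 160.5 with galactose and 103.1 to 218.9 in control, a difference of 1.29 ± 0.46 (SE, adjusted p = 0.0899). HXT4 read 430.3 and 129.9 with galacturonic acid, against 196.5 and 15.8 with galactose and 24.1 to 80.8 in control, so the groups overlapped and the difference of 2.09 had an SE of 1.12. HXT6 read 3596.8 and 3222.8 with galacturonic acid, against 2767.3 and 2247.1 with galactose and 3211.9 to 4092.7 in control, and the groups did not overlap. HXT7 read 3055.4 and 2821.5 with galacturonic acid, against 2091.9 and 2767.2 with galactose and 3018.7 to 3804.9 in control. HXT6 and HXT7, high-affinity transporters, are nearly identical in sequence and their probe sets cannot be told apart with certainty. Their differences were 0.45 ± 0.30 and 0.29 ± 0.31. HXT5, HXT2, HXT8 and HXT1 lay between -0.61 and 0.27, the glucose sensor gene SNF3 at -0.42 and the sensor gene RGT2 at 0.04. HXT1 and HXT8 were near the floor on most arrays. The list median was 0.26, and 12 of the 19 listed genes were measured. Without galactose array 1 HXT4 passed (adjusted p = 0.0184), and without galactose array 2 no gene of the list did. Of 13 genes of glucose repression and signalling 1 passed. This gene was RGT1 (YKL038W), a repressor of HXT genes: it read 273.5 and 254.6 with galacturonic acid, against 90.1 and 4.4 with galactose and 211.1 to 232.1 in control, a difference of 3.00 ± 0.78 (adjusted p = 0.0425) that was kept in all 4 fits. Its galacturonic acid values lay close to those of control, while its galactose values lay below both.

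**Figure D3:**
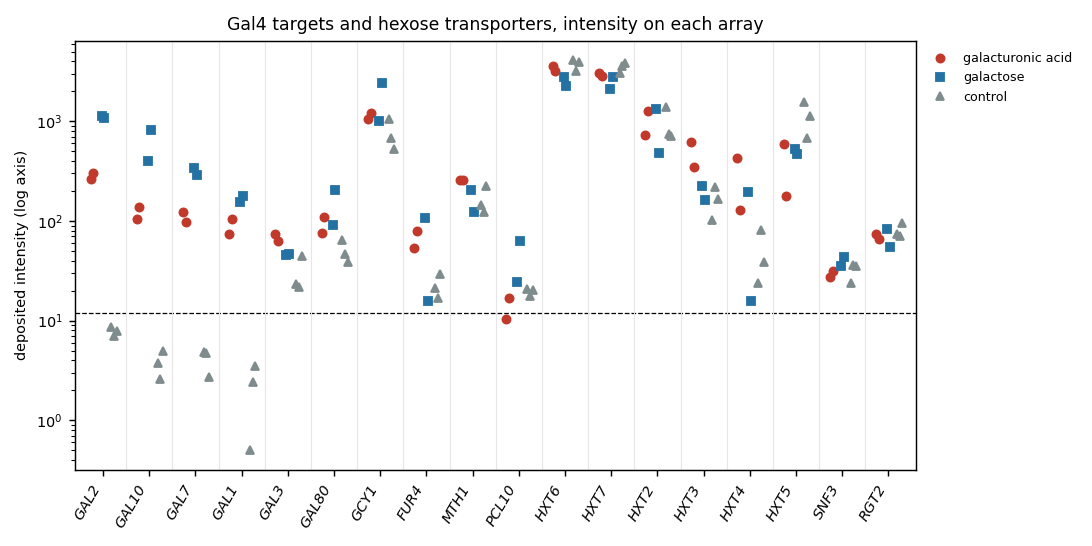
Deposited intensity (vertical log axis, arbitrary units) of the 10 Gal4 targets and the tested hexose transporter and sensor genes (without HXT1 and HXT8, which lie near the floor) on each array, with galacturonic acid, galactose and control from left to right for each gene. One point is one array and the dashed line is the floor of 12. GAL2, GAL10, GAL7 and GAL1 stand in the order galactose, galacturonic acid, control, while no HXT gene passed the test.

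Some genes were high with galacturonic acid alone among the 3 sets of cultures. DAK2 (YFL053W), a dihydroxyacetone kinase, read 543.7 and 484.3 with galacturonic acid, against 4.9 and 1.8 with galactose and 10.2 to 12.9 in control. The galactose arrays lay below the floor, so DAK2 was at least 42.8-fold higher with galacturonic acid (log2 difference 5.42 ± 0.29 SE, adjusted p = 0.000211), and its difference from control was 5.38 (adjusted p = 0.000106). AGP1 (YCL025C), an amino acid permease of broad range, read 347.8 and 205.8 with galacturonic acid, against 23.5 and 17.2 with galactose and 20.5 to 41.1 in control, a difference of 3.73 ± 0.45 (adjusted p = 0.00653). PHO84 (YML123C), the high-affinity phosphate transporter, read 86.1 and 62.5 with galacturonic acid, against 8.1 and 8.4 with galactose and 10.0 to 15.5 in control, at least 6.11-fold higher (adjusted p = 0.00355). For all 3 genes the galacturonic acid values stood above those of the other 5 arrays, and the calls were kept in all 4 fits. STL1, the glycerol proton symporter gene, fell, with 71.5 and 40.3 with galacturonic acid, against 228.7 and 210.8 with galactose and 124.6 to 237.8 in control (difference -2.03 ± 0.45, adjusted p = 0.0287), a call lost with array weights and without galactose array 2. These were the calls, 1 in each direction, among 11 genes of glycerol and dihydroxyacetone metabolism, which gave 2 higher and 2 lower without galactose array 1, and 1 higher and 0 lower without galactose array 2.

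In the list of nitrogen catabolism genes and permeases, 2 of 32 rose (6.25%) and 3 fell (9.38%), near the 5.23% and 7.91% over all genes. The balance depended on the array, with 8 higher and 4 lower without galactose array 1, and 2 higher and 6 lower without galactose array 2. GDH3, a glutamate dehydrogenase, rose with AGP1, at 487.5 and 578.6 with galacturonic acid, against 203.1 and 54.0 with galactose and 372.4 to 413.4 in control (difference 2.34 ± 0.56, adjusted p = 0.0348). GAP1 (YKR039W), the general amino acid permease, read 72.1 and 120.9 with galacturonic acid, against 724.1 and 293.9 with galactose and 441.0 to 448.3 in control, a difference of -2.30 ± 0.47 (adjusted p = 0.0241). PUT1, proline oxidase, and DUR3, a urea and polyamine permease, also fell, by 2.20 and 1.95 on the log2 scale. The calls of AGP1 and GDH3 were kept in all 4 fits, and those of GAP1, PUT1 and DUR3 were lost with array weights (adjusted p = 0.0647, 0.0644 and 0.12), DUR3 also without galactose array 2 (0.0666).

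Of 18 tested genes of the mating response, 6 rose and 1 fell, with a median difference of 1.17 against -0.24 over all genes, and 3 of the rises were kept in all 4 fits. AGA1 (YNR044W), the anchor subunit of a-agglutinin, read 706.1 and 636.2 with galacturonic acid, against 190.3 and 51.2 with galactose and 101.7 to 108.0 in control, a difference of 2.76 ± 0.56 (SE, adjusted p = 0.0231). PRM1 (YNL279W), a membrane protein of mating cells that acts in cell fusion, read 131.7 and 130.9 with galacturonic acid, against 26.6 and 3.8 with galactose and 14.3 to 22.7 in control, a difference of 2.88 ± 0.43 (adjusted p = 0.0106). FIG2, a cell wall adhesin of mating cells, was at 117.6 and 93.8 with galacturonic acid, against 34.6 and 17.8 with galactose and 19.1 to 29.4 in control (difference 2.08 ± 0.41, adjusted p = 0.0224), a call lost with array weights and without galactose array 2. For AGA1, PRM1 and FIG2 the galactose values overlapped or spanned the control range. PRM2, a further pheromone-regulated membrane protein gene, fell by 1.80. The count of mating response calls was 11 higher and 4 lower without galactose array 1 and 5 higher and 0 lower without galactose array 2.

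The 7 genes that MATa cells express gave no call, with a median of 1.2. Their summed intensity ranged from 6466.1 to 8020.7 on the galacturonic acid arrays, from 4000.9 to 4492.7 on the galactose arrays and from 1579.2 to 2234.5 on the control arrays. Each of them lay above the floor on at least 6 of the 7 arrays. AGA2, the binding subunit of a-agglutinin with the smallest p of that list, read 626.7 and 575.4 with galacturonic acid, against 312.2 and 170.0 with galactose and 78.7 to 148.9 in control (difference 1.38 ± 0.45, adjusted p = 0.0685). Of the MATalpha genes, the alpha-factor precursor gene MF(ALPHA)1 (YPL187W) rose: it read 912.4 and 844.7 with galacturonic acid, against 141.5 and 11.9 with galactose and 18.7 to 42.8 in control, a difference of 4.41 ± 0.98 (adjusted p = 0.0293) that was kept in all 4 fits. No other MATalpha gene passed: STE3 read 72.5 and 73.8 with galacturonic acid, against 51.4 and 15.6 with galactose, SAG1 overlapped between the groups, and MF(ALPHA)2 lay below the floor on all 7 arrays. Summed markers of sporulating diploid cells ranged from 89 to 101.4 with galacturonic acid, from 95.9 to 116.4 with galactose and from 68 to 85.4 in control.

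The 12 largest rises had log2 differences from 4.14 to 7.11, and for many of them the galactose arrays read near or below the floor while control was high. HAC1 (YFL031W), the transcription factor of the unfolded protein response, read 1989.8 and 1380.0 with galacturonic acid, against 1.7 and 1.0 with galactose and 258.2 to 599.0 in control. At that probe set, its brightest, it was at least 138-fold higher (adjusted p = 0.000376). The 4 HAC1 probe sets ranged from 3.45 to 7.11 on the log2 scale, so the bound does not hold for all of them. AQY2 (YLL052C), a water channel, read 1248.2 and 1239.4 with galacturonic acid, against 21.6 and 2.9 with galactose and 323.6 to 546.2 in control, a difference of 6.27 ± 0.41 (adjusted p = 0.000376). For YLL053C, the next locus by systematic name, the difference was smaller, at 2.51 ± 0.42 (adjusted p = 0.0151). YLL053C read 1961.8 and 1938.9 with galacturonic acid, against 472.8 and 249.2 with galactose and 593.4 to 1073.1 in control. SAM3 (YPL274W), the S-adenosylmethionine permease, read 337.3 and 342.7 with galacturonic acid, against 8.5 and 1.0 with galactose and 152.0 to 186.5 in control. At that probe set, its brightest, it was at least 28.3-fold higher (adjusted p = 0.000393). The 4 SAM3 probe sets ranged from 0.09 to 4.82 on the log2 scale, and 3 of them were called. At the probe sets given here the galactose arrays stood lowest of all for HAC1, AQY2 and SAM3, and control lay between. YOR302W, the open reading frame upstream of CPA1, read 1371.8 and 1642.1 with galacturonic acid, against 9.3 and 35.6 with galactose and 1594.5 to 2296.1 in control. CPA1 itself did not pass, with a log2 difference of -0.12 (adjusted p = 0.83). The part of the low 5' signal of the galactose arrays in this contrast was not tested. YNL190W read 1520.5 and 1586.3 with galacturonic acid, against 52.9 and 22.5 with galactose and 1140.2 to 1370.1 in control. The galacturonic acid values overlapped control for YOR302W and lay just above it for YNL190W, and the log2 differences from galactose were 6.18 and 5.49. The other rises were the cell wall protein gene TOS6 (5.17), YFR018C (5.11), ZWF1 (4.23), HTC1 (YPL067C, 4.18) and COS7 (4.14), besides DAK2 and MF(ALPHA)1, and all 12 calls were kept in all 4 fits.

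The 12 largest falls had differences from -4.54 to -2.90. ADY2 (YCR010C), the acetate transporter, read 11.2 and 32.4 with galacturonic acid, against 449.6 and 410.3 with galactose and 277.2 to 672.7 in control, a difference of -4.45 ± 0.57 (SE, adjusted p = 0.00751). HPF1 (YOL155C), a cell wall mannoprotein, read 152.9 and 189.9 with galacturonic acid, against 2066.1 and 4572.4 with galactose and 3474.5 to 4948.0 in control, a difference of -4.17 ± 0.42 (adjusted p = 0.00296). FAT3 (YKL187C), which acts in fatty acid uptake, read 11.2 and 21.3 with galacturonic acid, against 203.2 and 283.4 with galactose and 208.6 to 467.1 in control, a difference of -3.91 ± 0.49 (adjusted p = 0.00721). In these 3 genes the galactose arrays stood at or near the control level and the galacturonic acid arrays stood apart. PEX19, a chaperone of peroxisomal membrane proteins, differed in that galactose was the high group: it read 19.0 and 18.8 with galacturonic acid, against 125.6 and 254.1 with galactose and 23.9 to 28.6 in control (difference -3.24 ± 0.39). YER121W (-4.54), the protein kinase gene PRR2 (-3.63), the mitochondrial reductase gene ETR1 (-3.11), PIG2 (-3.08) and PXA1 (-3.06) were also kept in all 4 fits. SPG4 (-3.75) lost its call with array weights and without galactose array 2, and NQM1 (-2.96) and HAB1 (-2.90) lost theirs without galactose array 2.

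**Figure D4:**
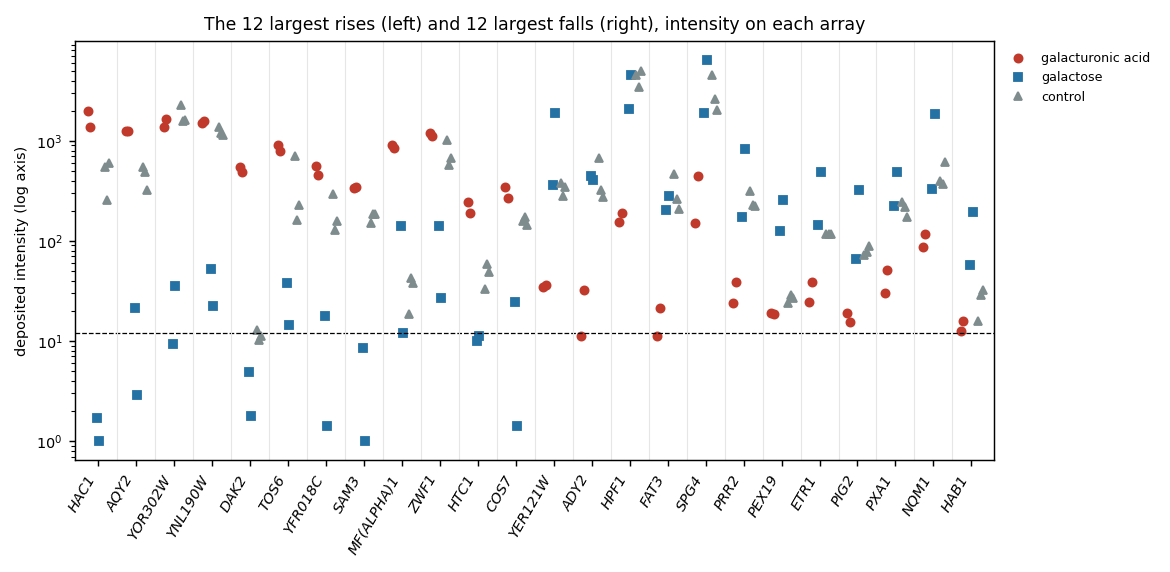
Deposited intensity (vertical log axis, arbitrary units) of the 12 largest rises (left) and 12 largest falls (right) on each array, with galacturonic acid, galactose and control from left to right for each gene. One point is one array and the dashed line is the floor of 12. Each gene is shown at its brightest probe set. There DAK2 is high on the galacturonic acid arrays alone, HAC1 and SAM3 are low on the galactose arrays alone, and ADY2, HPF1 and FAT3 are low on the galacturonic acid arrays alone.

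Members of glycolysis, the TCA cycle and the pentose phosphate pathway rose, and the galactose arrays lay below control in most of those named. In glycolysis and ethanol formation 3 of 20 genes rose and none fell, with a median of 1.30. ADH1 (YOL086C), the main fermentative alcohol dehydrogenase, read 4535.0 and 4360.3 with galacturonic acid, against 1468.5 and 399.2 with galactose and 3039.3 to 4562.0 in control (difference 2.54 ± 0.56 SE, adjusted p = 0.0287), and its call was kept in all 4 fits. Phosphoglucose isomerase (PGI1) and pyruvate decarboxylase (PDC1) also rose, by 2.45 and 1.92, and lost the call with array weights and without galactose array 2. The glycolysis counts were 14 higher and 0 lower without galactose array 1, and 1 higher and 0 lower without galactose array 2, and the list median was 0.76 against galactose array 1 and 1.97 against galactose array 2. In the TCA cycle 3 of 16 rose and none fell (median 1.29): the succinate dehydrogenase genes SDH4 and SDH1 and KGD1, a subunit of 2-oxoglutarate dehydrogenase, at 1.46, 1.38 and 1.32. SDH1 read 1350.8 and 1235.7 with galacturonic acid, against 484.4 and 505.3 with galactose and 698.3 to 805.3 in control. Unlike the glycolytic genes, these 3 were highest with galacturonic acid among all 7 arrays, and none of the 3 was called with array weights. No TCA cycle gene passed the threshold between galacturonic acid and control. TCA cycle calls numbered 11 higher and 1 lower without galactose array 1, and 2 higher and 0 lower without galactose array 2.

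In the pentose phosphate pathway 3 of 13 rose and 1 fell. ZWF1 (YNL241C), glucose-6-phosphate dehydrogenase, read 1199.0 and 1115.0 with galacturonic acid, against 141.4 and 26.7 with galactose and 575.5 to 1029.6 in control (adjusted p = 0.0148), and SOL2 rose by 2.20 and RPE1, ribulose phosphate epimerase, by 1.34. NQM1, a transaldolase isoform, read 87.8 and 115.9 with galacturonic acid, against 333.3 and 1843.3 with galactose and 373.2 to 609.1 in control. In the respiratory chain and ATP synthase 3 of 34 rose and 1 fell. The internal NADH dehydrogenase gene NDI1 rose by 3.71 (1704.4 and 1404.2 with galacturonic acid, against 309.9 and 45.2 with galactose and 981.6 to 1168.4 in control), together with QCR2 of the cytochrome bc1 complex (2.83) and cytochrome c (CYC1, 1.32). The external NADH dehydrogenase gene NDE2 fell, with 59.3 and 106.1 with galacturonic acid, against 294.6 and 739.9 with galactose and 569.8 to 694.8 in control (difference -2.56 ± 0.49, adjusted p = 0.0205). NDI1 and QCR2 were kept in all 4 fits, and NDE2 was lost with array weights (adjusted p = 0.0592). The pentose phosphate list gave 5 higher and 1 lower without galactose array 1, and 2 higher and 0 lower without galactose array 2. Respiratory chain calls numbered 13 higher and 7 lower without galactose array 1, and 2 higher and 1 lower without galactose array 2.

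Permeases and enzymes of gluconeogenesis, the glyoxylate cycle and acetate, lactate and carnitine metabolism moved in both directions, with 2 of 23 genes higher, 3 lower and a median of -0.45. JEN1 (YKL217W), the lactate permease, read 496.7 and 534.5 with galacturonic acid, against 1557.0 and 2406.6 with galactose and 1693.0 to 2755.0 in control, a difference of -1.91 ± 0.36 (adjusted p = 0.0205), and ATO3, of the same family as ADY2, fell by 1.66. ADY2, JEN1 and ATO3 were lowest on the galacturonic acid arrays. PCK1 (YKR097W), phosphoenolpyruvate carboxykinase, was the opposite, with 668.2 and 452.9 with galacturonic acid, against 118.5 and 31.1 with galactose and 49.2 to 155.1 in control (difference 3.18 ± 0.71, adjusted p = 0.0296). YAT1, a carnitine acetyltransferase, rose by 3.00. Of these 5 calls, those of ADY2 and YAT1 were kept in all 4 fits, and the list gave 7 higher and 5 lower without galactose array 1, and 1 higher and 2 lower without galactose array 2.

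Among the targets of the stress activators Msn2 and Msn4, 30 in all, 7 fell and none rose, with a median of -0.65, and none of the 7 was kept in all 4 fits. SPG4, a stationary phase gene, read 151.8 and 440.7 with galacturonic acid, against 1890.6 and 6446.2 with galactose and 2019.0 to 4493.1 in control. CTT1 (YGR088W), the cytosolic catalase, read 22.6 and 15.3 with galacturonic acid, against 47.0 and 249.3 with galactose and 126.5 to 191.4 in control (difference -2.54 ± 0.70 SE, adjusted p = 0.0491). GRE1, a hydrophilin, fell by 1.57, with galactose values of 669.1 and 613.8 between the galacturonic acid values of 178.7 and 259.2 and the control range of 1747.3 to 2140.6. Galactose was thus near control for SPG4, overlapped it for CTT1 and lay below it for GRE1. The count was 13 lower without galactose array 1, and 2 lower and 1 higher without galactose array 2, and the list median was -0.32 against galactose array 1 and -1.25 against galactose array 2.

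In trehalose and glycogen metabolism 3 of 17 fell (PIG2, GLG1 and PIG1, with GLG1 a self-glucosylating initiator of glycogen) and none rose. In peroxisomal beta-oxidation 5 of 18 fell and 1 rose, with a median of -0.59. PXA1 (YPL147W), part of the importer of long-chain fatty acids, read 30.0 and 51.7 with galacturonic acid, against 222.5 and 482.7 with galactose and 175.2 to 242.1 in control (difference -3.06 ± 0.47, adjusted p = 0.0118). Its partner PXA2 fell by 2.22, the peroxisomal catalase gene CTA1 by 2.17, and the thioesterase gene TES1 rose by 2.01. The beta-oxidation list gave 3 higher and 6 lower without galactose array 1, and 1 higher and 3 lower without galactose array 2, and the trehalose and glycogen list 1 higher and 5 lower without galactose array 1, and 0 higher and 1 lower without galactose array 2. The beta-oxidation calls kept in all 4 fits were PXA1 and TES1. Among 19 chaperone genes HSP60 (2.15) and SSA2 (1.08) rose. Among 23 oxidative stress genes the mitochondrial superoxide dismutase gene SOD2 rose (1.96) and 2 fell, CTA1 and CTT1.

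Of 35 cell wall genes 6 rose and 2 fell, with a median of 1.19, which was 0.42 against galactose array 1 and 1.80 against galactose array 2. The balance of the cell wall counts depended on the array left out, at 22 higher and 3 lower without galactose array 1, and 2 higher and 3 lower without galactose array 2. HSP150 (YJL159W), a secreted mannoprotein, read 743.9 and 832.5 with galacturonic acid, against 171.9 and 44.7 with galactose and 476.4 to 697.5 in control (difference 3.17 ± 0.57 SE, adjusted p = 0.0189). CIS3, of the same protein family, and YPS1, an aspartyl protease of the cell surface, rose by 2.91 and 2.75, and HSP150 and YPS1 were kept in all 4 fits. HPF1 and the daughter-cell separation gene DSE1 (-1.52) fell. TIR4 (YOR009W), an anaerobically induced mannoprotein, was the only call among 14 oxygen-responsive genes, with 78.8 and 81.0 with galacturonic acid, against 10.3 and 10.1 with galactose and 93.3 to 118.0 in control, at least 6.66-fold higher (adjusted p = 0.00653).

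CTR3 (YLR411W), a high-affinity copper transporter, was the only call among 10 copper genes and was kept in all 4 fits. It read 202.0 and 160.2 with galacturonic acid, against 948.0 and 881.6 with galactose and 747.3 to 1014.7 in control, a difference of -2.35 ± 0.32 (adjusted p = 0.00881), so galactose and control overlapped. Of 13 zinc-regulated genes ZPS1 fell by 1.72. Of 23 iron uptake genes MRS4, a mitochondrial iron transporter, rose (2.53) and the reductase genes FRE4 and FRE1 fell (-2.13 and -1.88). The iron shares of 4.35% higher and 8.70% lower lay near those of all genes (5.23% and 7.91%). Of 13 phosphate genes PHO84 and PHO4, the activator of that regulon, rose and DDP1, a polyphosphate phosphatase, fell by 2.03. PHO4 (YFR034C) read 122.1 and 116.5 with galacturonic acid, against 3.0 and 0.2 with galactose and 75.4 to 95.8 in control, at least 9.94-fold higher (adjusted p = 0.00296). PHO4 and MRS4 thus stood near control with galacturonic acid and low with galactose, whereas PHO84 stood near control with galactose. Iron uptake calls numbered 7 higher and 3 lower without galactose array 1, and 1 higher and 4 lower without galactose array 2. The phosphate list gave 3 higher and 3 lower without galactose array 1, and 2 higher and 0 lower without galactose array 2, the copper list 3 higher and 2 lower without galactose array 1, and 0 higher and 1 lower without galactose array 2, and the zinc list 2 higher and 2 lower without galactose array 1, and 0 higher and 2 lower without galactose array 2.

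**Figure D5:**
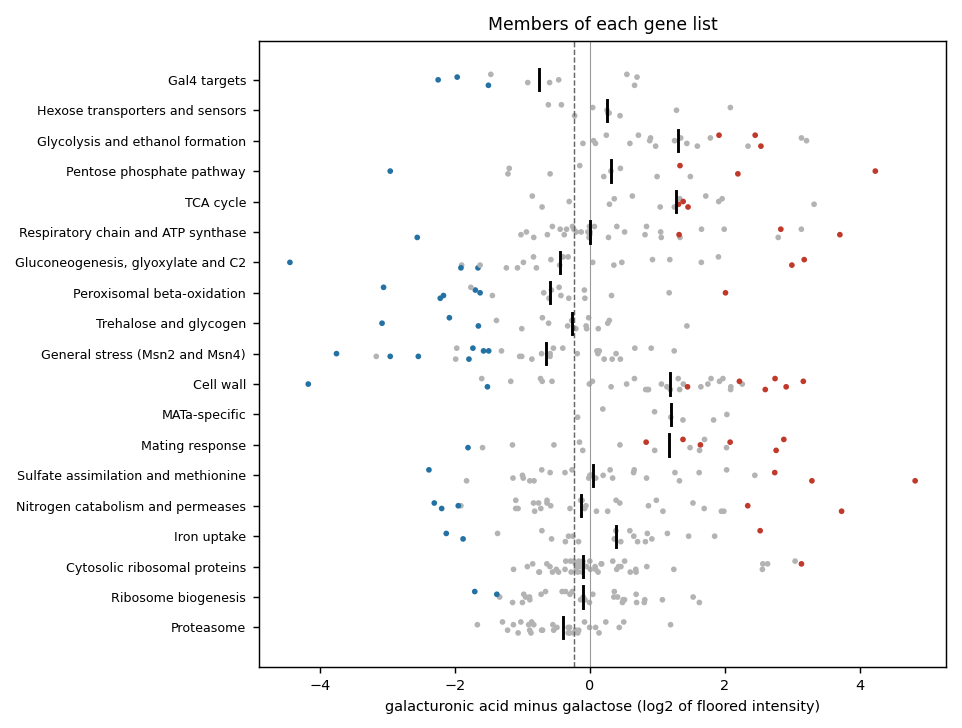
Log2 difference of galacturonic acid minus galactose (horizontal axis) for the members of the larger gene lists, 1 point per gene, with red points for genes called higher, blue points for genes called lower and grey points for genes not called. The black bar is the median of each list and the dashed line the median of all 5220 genes, -0.24. In the fit of all arrays the cell wall list held 6 calls to the right and 2 to the left, against 2 and 3 without galactose array 2, and the general stress list held 7 calls to the left and none to the right.

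Sulfur genes gave 3 rises and 1 fall among 30: besides SAM3 these were CYS3, cystathionine gamma-lyase, at 3.29, the siroheme synthesis gene MET8 at 2.74 and MET32, a regulator of methionine genes, at -2.38. The shares were 10% higher and 3.33% lower, against 5.23% and 7.91% over all genes. The sulfur list gave 10 higher and 3 lower without galactose array 1, and 2 higher and 0 lower without galactose array 2. MET8 read 161.2 and 132.1 with galacturonic acid, against 39.6 and 5.7 with galactose and 16.4 to 31.9 in control. Of 39 Gcn4-controlled amino acid synthesis genes the only call was ILV6, the regulatory subunit of acetolactate synthase, at 3.58, and of 22 genes of purine and NAD synthesis it was IMD2. Of 49 tested cytosolic ribosomal protein genes RPP2A passed (3.14) and the median was -0.10, or 0.16 after removing the coding length trend, so no direction is given for that list. Many ribosomal protein genes have a near-identical copy. Of 33 ribosome biogenesis genes RLP7 and NOP4 fell (-1.70 and -1.38), 6.06% of the list against 7.91% over all genes. The list median was -1.08 against galactose array 1 but 0.87 against galactose array 2. None of 32 proteasome, 24 ergosterol, 12 multidrug resistance, 11 histone and S phase or 6 maltose and sucrose genes passed, with medians from -0.40 to 0.18. Of 17 cyclin and cell cycle genes SFG1, a regulator of filamentous growth, and the G1 cyclin gene CLN3 rose (3.19 and 3.02). Both calls were lost with array weights and without galactose array 2, where adjusted p was 0.0604 for SFG1 and 0.0502 for CLN3. SFG1 read 183.7 and 220.7 with galacturonic acid, against 40.5 and 4.6 with galactose and 10.7 to 27.4 in control.

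The remaining lists gave few calls, none of which was kept in all 4 fits. The aldo-keto reductase genes YJR096W and YPR1, of 8 tested, fell by 2.01 and 1.53 on the log2 scale. YJR096W read 68.6 and 78.4 with galacturonic acid, against 246.6 and 353.8 with galactose and 251.4 to 499.7 in control, so galactose and control overlapped. Of 13 weak acid response genes MSC1 and GRE1 fell (-1.79 and -1.57), and both also belong to the general stress list. In fatty acid and phospholipid synthesis (17 genes) the phospholipid methyltransferase gene OPI3 rose by 2.22 and INO4, an activator of phospholipid synthesis genes, fell by 1.64. Of 15 thiamine and biotin genes the biotin synthesis transporter gene BIO5 and the thiamine pyrophosphokinase gene THI80 fell, by 1.45 and 1.2. Of 21 proton pump and pH genes HSP30, a membrane protein that regulates the proton pump Pma1, rose by 2.86, and of 8 meiosis and sporulation genes RIM4 rose by 1.81. HSP30 read 1711.7 and 1815.2 with galacturonic acid, against 322.4 and 183.2 with galactose and 913.1 to 2260.4 in control, so galacturonic acid lay within the control range and galactose below it.

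The counts of the smaller lists also moved with the galactose arrays. In the following lists some calls were left without either array. The Gcn4-controlled list gave 9 higher and 4 lower without galactose array 1, and 1 higher without array 2. Ribosome biogenesis gave 11 higher and 1 lower without array 1, and 1 lower without array 2. The oxidative stress list gave 4 higher and 8 lower without array 1, and 1 in each direction without array 2, and the chaperone list 4 higher and 1 lower, and 2 higher. Thiamine and biotin genes gave 5 higher and 3 lower without array 1, and weak acid genes 4 higher and 2 lower, with 1 lower in each without array 2. Glucose repression gave 6 higher and 1 lower without array 1, the oxygen-responsive list 2 higher and 1 lower and the MATalpha list 2 higher, with 1 higher in each without array 2.

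Without galactose array 2 no call was left in the remaining lists. Without galactose array 1 these were 10 higher and 7 lower for ribosomal proteins, 2 higher and 10 lower for the proteasome, 8 higher and 3 lower for ergosterol synthesis, and 8 higher and 3 lower for fatty acid and phospholipid synthesis. Proton pump genes gave 9 higher and 3 lower, purine and NAD genes 7 higher and 2 lower, and the cyclin and the histone lists 5 higher and 1 lower each. Aldo-keto reductase genes gave 1 higher and 3 lower, meiosis genes 1 higher and 2 lower, multidrug resistance and MATa genes 3 higher each, further galactose pathway genes 2 higher, and maltose and sucrose genes none.

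Probe sets that read different stretches of one transcript were compared with each other. Of 253 genes with several tested probe sets, 111 had at least 1 called, 6 (2.37%) had every probe set called in one direction, 126 had differences of both signs and 3 had calls in both directions. The span between probe sets of one gene, measured from control, exceeded 2 log2 units in 6 and 5 genes on the galacturonic acid arrays, 60 and 131 on galactose arrays 1 and 2, and 0 to 2 on the control arrays. The 6 genes with every probe set called were all higher with galacturonic acid. HAC1 had 4 probe sets with differences from 3.45 to 7.11, and IMD2 (YHR216W), inosine monophosphate dehydrogenase, had 3 from 2.05 to 3.47. IMD2 read 931.7 and 1210.4 with galacturonic acid at its brightest probe set, against 355.9 and 185.6 with galactose and 144.1 to 243.8 in control, and it has near-identical copies in the genome. At that probe set the IMD2 call was lost with array weights (adjusted p = 0.0869) and without galactose array 2 (0.0699), and that of YKL033W-A with array weights (0.0569). COS7, of a family of near-identical subtelomeric genes, had 2 from 2.25 to 4.14, RSO55 3 from 1.64 to 3.24, the vacuolar lipase gene ATG15 3 from 1.61 to 2.21 and YKL033W-A 2 from 2.16 to 2.78.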

How the data were processed

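RNA of 7 chemostat cultures was hybridised to 1-colour Affymetrix YG98S arrays, per the labels' protocols, and the submitters' processing notes name GCOS 1.2. The authors deposited linear intensity values for 9335 probe sets, whose mean without the highest and lowest 2% was about 150.1 on each array, read from the values. The signal algorithm is not given in the sources used here. At or below an intensity of 12 lay 31.2% to 34.0% of probe sets. Precision is limited by how few arrays there are. No pair of arrays shared more than 2.05% equal values.

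Genes were named from the 6504 probe sets listed for 1 gene, all of which a gene ID paired with the RefSeq gene table (assembly R64), and 328 listed for several genes and 2443 unlisted were kept apart. The brightest probe set stood for the 315 genes with several. Values were floored at 12, taken as log2 and fitted with limma 3.58.1 in R 4.3.3 (a mean per group, 4 residual degrees of freedom, eBayes with an intensity trend), and p-values were adjusted by Benjamini-Hochberg over 5220 genes at a threshold of 0.05. A fold against a group wholly at or below the floor is given as "at least", the mean against the floor. Log2 differences are galacturonic acid minus galactose with the SE of the fit.

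Groups came from the treatment label, and replicate numbers in deposit order name an array only. The cultures carry separate codes, but p-values measure only the spread between these arrays. The fit of all arrays takes a common spread per gene for all groups. The median SD was 0.52 with galactose, against 0.17 with galacturonic acid and 0.30 in control. The SEs and p-values can therefore understate the spread between galactose arrays. The codes begin with MA for both galactose arrays and with EH for all galacturonic acid and control arrays. What the code series stand for is not stated, and the series and the galactose treatment cannot be told apart. Genes named are the 12 largest rises and falls among non-overlapping calls, genes with every probe set called, all Gal4 targets and hexose transporters, and up to 3 calls each way of 42 gene lists, or the member with the smallest p. ENO1, and the mating markers given by value, were added after their values were seen. The comparison, its members and the lists were chosen with earlier results of these data known. The fit was tested on simulated data in which 200 of 5220 genes were changed and each group kept its own spread, the same for all genes. The changed genes were drawn only from those with a mean log2 control level above that of an intensity of 200. The 3'/5' bias of the galactose arrays was not simulated. The fit recovered 4%, 60%, 96% and 100% of 2-, 4-, 8- and 16-fold changes with 14 false calls. These rates do not cover dimmer genes or that bias. Alternatives were other floors, filters, scalings, probe set rules, thresholds, array weights, a replicate block, a coding length correction, the 4 arrays alone and leaving out each array.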

Additional observations from a re-analysis of the deposited data

Results flagged for a closer look

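Probe sets that the platform annotation lists for no gene were outside the comparisons above, and 772 of them passed the filter on dim signals. With limma, 39 of these were called (5.05%), of which 22 rose and 17 fell relative to galactose. Among them 4 were higher with galacturonic acid both than with galactose and than in control, past the threshold in both. The brightest of the 4 read 3268.1 and 2313 with galacturonic acid, against 767.3 and 654.6 with galactose and 319.2 to 587.8 in control, with a log2 difference from galactose of 1.96 (adjusted p = 0.0321) and from control of 2.63 (adjusted p = 0.0238). A second read 60.9 and 44.1 with galacturonic acid, against 7.5 and 5.1 with galactose and 10.3 to 16.9 in control. Which transcripts they read was not examined here. Of 269 probe sets listed for several genes, 23 passed (8.55%), 20 higher and 3 lower.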

How the results depend on the processing

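The counts of calls (686, with 273 higher and 413 lower) moved by over 1.5 times under many settings, given here as total, higher and lower. They were 268, 120 and 148 with a floor of 50, 244, 137 and 107 with no filter on dim genes, and 153, 88 and 65 when only genes above the median level were tested. With array weights they were 135, 111 and 24, and at thresholds of 0.01 and 0.1 they were 49, 42 and 7, and 1475, 521 and 954. The 4 fits together, a setting chosen after seeing the data, gave 126, 105 and 21. The 4 arrays alone, with 2 residual degrees of freedom, gave 0, 0 and 0 calls with limma (1250 at an unadjusted p under 0.05), and the replicate block, a paired fit on numbers that do not pair the arrays by any label, gave 7, 7 and 0 (1495). Those 7 were HAC1, AQY2, YOR302W, YNL190W, DAK2, YFR018C and SAM3. Lower calls numbered 230 after quantile normalisation, 211 after 75th percentile scaling and 239 after removing the coding length trend, which gave 440 higher calls, and every probe set on its own gave 419 higher. Leaving out 1 array gave 4 to 2327 calls, 4 to 1138 higher and 0 to 1189 lower: 4 and 5 without galacturonic acid array 1 and 2, 2327 and 279 without galactose array 1 and 2, and 344, 167 and 133 without control array 1, 2 and 3. Of the 686 calls, 672 were shared without galactose array 1 and 234 without galactose array 2. Of 99 called genes named, 48 kept the call with array weights, 97 without galactose array 1, 64 without galactose array 2 and 90 after the coding length correction, and none of them changed direction.

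Genes that were not called changed sign as follows, and the cause was not tested. FUR4 was at -0.18 with a floor of 50. When single arrays were left out, FUR4 ranged from -0.72 (without galactose array 2) to 2.05, GCY1 from -1.09 to 0.17, HXT1 from -0.56 to 0.11, HXT2 from -0.47 to 1.00, HXT5 from -1.48 to 0.25 and RGT2 from -0.25 to 0.34. The 3'/5' ratios limit every value of the galactose arrays, and genes at the floor have no order among themselves.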
